A study of Mus musculus with 3 samples.

Results

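The NADPH oxidase subunit genes Cyba, Cybb, Ncf1, Ncf4, Nox1 and Nox4 and the proton channel gene Hvcn1 were examined in RNA sequencing libraries of mouse microglia, the resident macrophages of the brain. They were the rows of the deposited gene tables with these 7 symbols, and all 7 were found among 24411 genes. The 3 libraries were replicates 1 to 3 of 1 group. Their label was cKO, which the series design explains as Mir137loxP/loxP;Tmem119-CreERT2, with the treatment Pu.1 inhibitor. The mice were C57BL/6J, the tissue was brain and the labelled age was 6 to 8 weeks. In this genotype a Cre recombinase expressed from the microglial gene Tmem119 is switched on by tamoxifen, given for 7 days to mice aged 7 to 8 weeks according to the design text. The sources do not reconcile this schedule with the labelled age. Primary microglia of adult mice were then isolated and purified. The sources used here do not name the inhibitor, its dose, its timing or its route, nor the animals behind each replicate. Libraries of control genotype or without inhibitor were not analysed here. All values are therefore levels with deletion and inhibitor together, and neither can be given an effect of its own. Nothing in the labels says that the replicates came from separate animals, and p-values measure only how these samples spread, which may be technical.

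The phagocyte NADPH oxidase is a membrane enzyme that passes electrons from NADPH in the cytosol to oxygen outside the cell or in the phagosome, and so makes superoxide. Its membrane core is a heterodimer of the catalytic subunit gp91phox, encoded by Cybb and also called NOX2, and p22phox, encoded by Cyba. In a resting cell the organizer p47phox (Ncf1) and p40phox (Ncf4) are among the parts held in the cytosol, and on stimulation they join the core together with a Rac GTPase. Electron transfer leaves protons behind in the cell, and the voltage-gated proton channel HV1, encoded by Hvcn1, lets them out. Nox1 and Nox4 encode relatives of gp91phox that also pair with p22phox and are best known from colon epithelium and smooth muscle and from kidney and vessel wall. Microglia are known to use the NOX2 enzyme for their respiratory burst, and Pu.1, encoded by Spi1, is known to bind regulatory sequences of phagocyte oxidase genes.

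Promoter sequences are shown for the 2 members with the highest FPKM and for the 2 whose windows hold the motif searched, because the treatment was aimed at a DNA-binding factor. The RefSeq windows on GRCm38.p6, 250 bases before to 50 after the annotated start, were available for 5 of the 7 genes, Cyba, Cybb, Ncf1, Nox1 and Nox4. The 250 bases before the start are printed 5′ to 3′ on the coding strand, and capitals mark GAGGAA or its reverse complement TTCCTC, the core letters that Pu.1 prefers. Each gene shown is on the minus strand. The windows are chr8:122432941-122433190 for Cyba, chr5:134229626-134229875 for Ncf1, chrX:9469325-9469574 for Cybb and chrX:134111855-134112104 for Nox1.
Cyba: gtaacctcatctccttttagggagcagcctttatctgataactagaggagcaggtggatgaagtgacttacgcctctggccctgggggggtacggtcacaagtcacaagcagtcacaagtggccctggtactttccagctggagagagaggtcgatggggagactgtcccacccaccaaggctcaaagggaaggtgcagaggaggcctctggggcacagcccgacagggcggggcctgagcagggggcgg
Ncf1: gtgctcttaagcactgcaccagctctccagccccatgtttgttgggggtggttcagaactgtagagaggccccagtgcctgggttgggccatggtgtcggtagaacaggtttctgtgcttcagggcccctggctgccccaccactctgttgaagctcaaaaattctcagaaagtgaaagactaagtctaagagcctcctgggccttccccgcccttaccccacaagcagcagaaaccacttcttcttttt
Cybb: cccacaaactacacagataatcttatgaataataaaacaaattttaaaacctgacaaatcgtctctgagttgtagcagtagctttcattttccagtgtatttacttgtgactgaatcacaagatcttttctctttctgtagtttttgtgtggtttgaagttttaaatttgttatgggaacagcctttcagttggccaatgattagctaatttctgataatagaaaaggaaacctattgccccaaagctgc
Nox1: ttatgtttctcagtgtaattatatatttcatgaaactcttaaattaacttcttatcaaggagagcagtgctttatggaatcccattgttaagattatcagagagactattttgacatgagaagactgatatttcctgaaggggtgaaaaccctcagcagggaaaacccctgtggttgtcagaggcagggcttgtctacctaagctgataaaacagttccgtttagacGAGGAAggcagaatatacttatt
Over the 300-base windows the core was found on either strand in Cybb and Nox1, and in none of Cyba, Ncf1 and Nox4. Only this exact form was searched, so sequence without capitals may hold other forms of a Pu.1 site. In Cybb the match lay just past the annotated start, at positions 10 to 15 counted from it, within chrX:9469298-9469327. In Nox1 it lay before the start, at positions -23 to -18, within chrX:134111860-134111889.
Cybb: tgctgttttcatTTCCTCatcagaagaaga
Nox1: ttccgtttagacGAGGAAggcagaatatac
Of 32851 such windows 28.3% held the core, so 2 of 5 says little about these genes. Cybb and Nox1, the pair with a match, stood far apart in level.

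The deleted microRNA is shown to ask whether oxidase transcripts carry its seed match. miR-137-3p, as RefSeq gives it at chr3:118433901-118433923 on the plus strand, is printed with its seed, bases 2 to 8, in capitals.
mmu-miR-137-3p: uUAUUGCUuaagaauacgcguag
The matching heptamer AGCAATA was found in none of the 7 longest annotated 3′ untranslated regions, which ran from 102 bases in Cyba to 2965 in Cybb. Among all 21037 genes with such a region 9.67% held it. Among genes with a region of like length the share ran from 1.14% for Cyba to 20.7% for Cybb (2493 genes). Its absence from 7 regions therefore says little about these genes. Other forms of seed match were not searched. The libraries hold no measure of miR-137 binding. Mir137 itself had 0 counts in each library, which does not check the deletion, since short microRNA precursors are generally not captured in libraries of this kind.

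The libraries held 17180404, 15710750 and 16356125 estimated counts, and 3 counts, the number that a count of 0 still allows, corresponded to 0.175 to 0.191 CPM (counts scaled to library size). Of the microglial markers examined, all 9 were at an FPKM (fragments per kilobase of gene length, scaled to library size) of at least 1 in every library, which is called detected below, from Sall1 at 134 ± 5.88 to Csf1r at 2370.2 ± 54.3 FPKM (mean ± SD, n = 3, as below), with P2ry12 at 1608 ± 7.79 and Tmem119 at 167 ± 10.1. The 9 had a summed level of 7741 to 7884 FPKM and took 2.02% of counts. Markers of other oxidase-bearing cells were present too. All 13 measured neutrophil markers were detected, from Mpo at 11.7 to S100a8 at 8800.0 FPKM, with a summed level of 14362 to 15842 FPKM and 0.40% of counts. The 7 monocyte and 7 border macrophage markers were all detected as well, with summed levels of 627 to 718 and 298 to 322 FPKM, F13a1 being in both lists. Of 6 B cell markers 2 were detected, with a summed level of 17.6 to 22.6 FPKM, led by Cd79b at 16.4 ± 2.96, and Pax5 was listed at 0 in 2 libraries. The part of these cells in the levels given below was not tested, and fewer cells of a type and less RNA per cell cannot be told apart in bulk samples.

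Of the 7 genes, 5 were detected, the phagocyte oxidase subunits Cyba, Ncf1, Ncf4 and Cybb and the proton channel Hvcn1, against 47.8% of all genes. Nox1 and Nox4 were near the counting limit. Together the 7 took 0.12 ± 0.0034% of counts. In FPKM the order was Cyba, Ncf1, Hvcn1, Ncf4, Cybb, and then Nox1 and Nox4. The median of log2(FPKM + 1) over the 7 was 5.27 ± 0.10, beside 0.95 ± 0.02 over all genes.

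**Figure D1:**
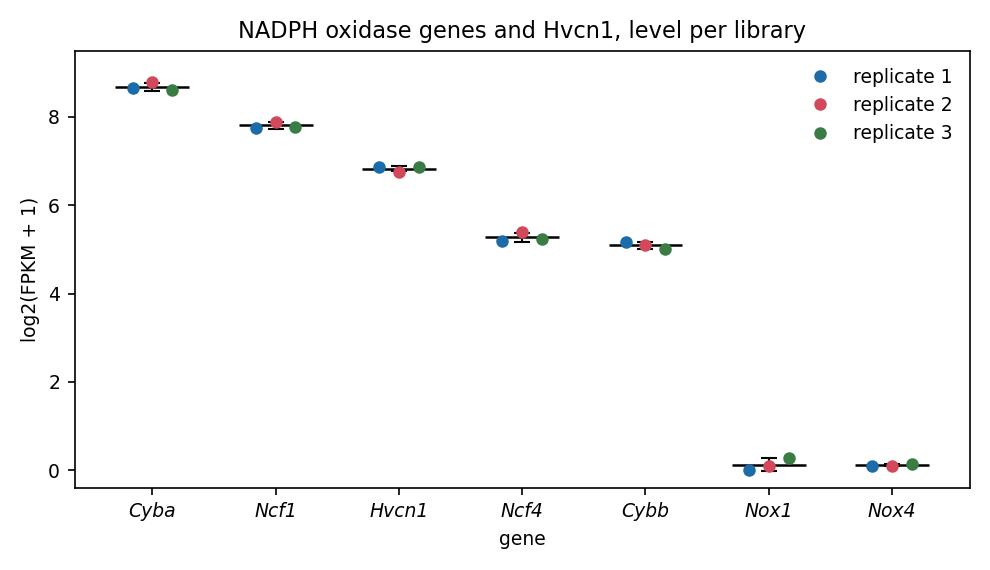
Level of the 7 genes in each library, as log2(FPKM + 1). Points are replicates 1 to 3, horizontal lines the mean and bars the SD. The spread between libraries is small beside the distance between genes, except for Ncf4 against Cybb and Nox1 against Nox4.

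Cyba, the p22phox subunit that every partner in the membrane needs, had the highest level. It was at 399.53, 439.48 and 393.04 FPKM in replicates 1, 2 and 3, a mean of 411 ± 25.1 FPKM and rank 181 of all genes. Replicate 2 stood above the other two. Its 3275, 3271 and 3063 counts fell on a short gene, with an effective length of 476 nt, which is the length after what a fragment occupies is taken off (GRCm38 chromosome 8, 122424776 to 122432930, minus strand, 7 exon blocks).

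Cybb, the catalytic partner, was the lowest of the 5 detected genes. Its values were 34.91, 33.38 and 31.35 FPKM, a mean of 33.2 ± 1.79 and rank 2612, from 2681, 2343 and 2292 counts. Here replicate 1 was the highest, unlike for Cyba. The gene lies on chromosome X at 9435252 to 9487771, minus strand, and its effective length of 4469 nt was the longest among the 7. Cyba exceeded Cybb by 12.4 ± 0.87 times in FPKM, a ratio of RNA and not of the proteins that form the heterodimer. The ratio was 11.4, 13.2 and 12.5 in the 3 libraries, a difference of 3.59 ± 0.10 on the log2(FPKM + 1) scale. This log2 difference depended on length. It was 3.03 ± 0.10 with the longest coding transcript as length and 0.39 ± 0.10 in CPM, with no length.

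Of the 2 cytosolic subunit genes among the 7, Ncf1 was the more abundant. This gene of the organizer p47phox was at 215.64, 236.67 and 218.17 FPKM, a mean of 223 ± 11.5 and rank 334, again with replicate 2 the highest. Its 9049, 9071 and 8695 counts were the most of any of the 7. Ncf1 (chromosome 5, 134220053 to 134229625, minus strand) shares 408 exonic bases with Gtf2ird2 on the opposite strand, and with strandedness not stated, reads there cannot be told apart. Gtf2ird2 was at 7.20 FPKM. Ncf4, encoding p40phox, which binds phosphoinositides of the phagosome membrane (chromosome 15, 78244801 to 78262580, plus strand), was at 35.80, 40.87 and 36.41 FPKM. Its mean was 37.7 ± 2.77, from 722, 752 and 699 counts, and replicate 2 was again above the others. Ncf1 exceeded Ncf4 by 5.94 ± 0.13 times, one of the steadiest ratios among the libraries, with 6.02, 5.79 and 5.99.

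Hvcn1, the proton channel, was expressed above the catalytic subunit. It was at 114.81, 107.42 and 115.05 FPKM, a mean of 112 ± 4.34 and rank 667, with replicate 2 the lowest. Hvcn1 exceeded Cybb by 3.39 ± 0.24 times and stood at 0.275 ± 0.026 times Cyba. Its counts of 4710.93, 4033.64 and 4479.29 were not whole, as when a read is divided between genes. The gene (chromosome 5, 122206804 to 122242297, plus strand) shares 1574 exonic bases with Tctn1 on the opposite strand, and Tctn1 was at 3.87 FPKM.

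The alternative catalytic subunits were barely counted. Nox4 (chromosome 7, 87246096 to 87398710) had 4, 4 and 6 counts and 0.07, 0.07 and 0.11 FPKM. Nox1 (chromosome X, 134086421 to 134221956) had 0, 2.19 and 8.03 estimated counts and 0, 0.06 and 0.22 FPKM, and the 0 in replicate 1 still allowed up to 0.077 FPKM. These 2 genes overlapped in range and could not be ordered. Nox1 shares 399 exonic bases with Cstf2 on the opposite strand, which was at 15.1 FPKM, and the part of Cstf2 reads in the Nox1 values was not tested. Summed over the libraries and per kilobase of the longest coding transcript, Cybb exceeded Nox4 by 413 times (95% exact binomial interval 246 to 755, counting error only). The same ratio to Nox1 was 395 (214 to 823), from 10 rounded Nox1 counts, most of which were from replicate 3. In deposited FPKM this ratio was 556 in replicate 2 and 142.5 in replicate 3 and had no value in replicate 1, where Nox1 is listed at 0. Without replicate 3 the mean of Nox1 was 0.03 FPKM. All 7 endothelial and all 7 mural markers were detected, with summed levels of 1473 to 1622 and 239 to 274 FPKM, and which cells the Nox1 and Nox4 counts come from was not tested.

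Between neighbours in the order, the ranges over the libraries did not overlap from Cyba down to Nox1. Cyba was 1.84 ± 0.03 times Ncf1, Ncf1 was 1.99 ± 0.18 times Hvcn1 and Hvcn1 was 3.0 ± 0.32 times Ncf4. Ncf4 was above Cybb in each library, but by only 1.02, 1.22 and 1.16 times, a log2 difference of 0.18 ± 0.13. The within-library differences were tested by exact sign-flip permutation (two-sided), which gave p = 0.25 for each of the 13 pairs compared but the Nox1 and Nox4 pair (p = 1). Adjusted over the 13 pairs, 0.25 became 0.271. With 3 libraries no smaller p than 0.25 is possible, and a threshold of 0.05 is out of reach.

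The order of levels depended on the length by which counts were divided. Per kilobase of the longest coding transcript in GENCODE M21, an alternative chosen after the data were seen, Cyba was at 263 ± 15.1, Ncf1 at 189 ± 9.70, Hvcn1 at 95.6 ± 3.56, Cybb at 31.2 ± 1.68 and Ncf4 at 30.2 ± 2.18 CPM per kilobase. Cyba stayed first by a smaller margin, and Cybb and Ncf4 changed places. Nothing is taken off this length for what a fragment occupies. It was 744 nt for Cyba, 1464 for Ncf4 and 4752 for Cybb, against effective lengths of 476, 1173 and 4469 nt. Without any division by length, Ncf1 led at 545 ± 27.9 CPM, followed by Hvcn1 at 268 ± 9.98, Cyba at 195 ± 11.2, Cybb at 148 ± 7.98 and Ncf4 at 44.2 ± 3.19 CPM. CPM counts reads per gene and does not compare levels between genes of unequal length.

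**Figure D2:**
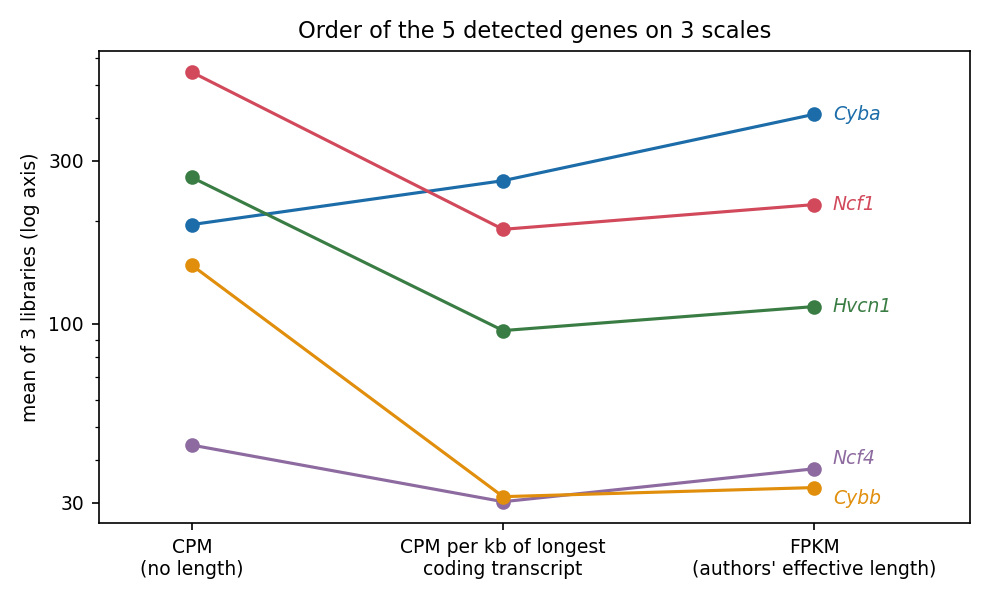
Mean over 3 libraries of the 5 detected genes on a log axis, as CPM with no length, as CPM per kilobase of the longest coding transcript, and as deposited FPKM. Lines join the values of a gene. Cyba is below Ncf1 and Hvcn1 in CPM and first on both scales per length, and Cybb and Ncf4 are at 31.2 and 30.2 on the middle scale.

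The next question was whether the members varied between libraries by more than counting error. Homogeneity of a gene's 3 counts was tested by chi-square, and this test, with Benjamini-Hochberg adjustment over the 13246 genes that passed the filter on low counts, called 4 of the 5 members tested at an adjusted p under 0.05. Over all genes tested, which were not matched to the members in counts, it called 41.4%, so a call was common. Nox1 and Nox4 did not pass the filter. The adjusted chi-square p was 1.375e-09 for Ncf1, 0.000174 for Cyba, 0.00297 for Cybb and 0.0133 for Hvcn1, and 0.0519 for Ncf4. The differences were small in size: the coefficient of variation over the libraries, in normalised CPM, was 3.60% for Hvcn1, 5.25% for Ncf1, 5.46% for Cybb, 5.90% for Cyba and 7.33% for Ncf4. Counting error alone would give 1.06 to 3.72%. Ncf4, the member not called, had the largest coefficient of variation and the fewest counts of the 5, so calls did not follow the size of variation. edgeR also gives a biological coefficient of variation, an estimate of the spread beyond counting error that is drawn toward the values of other genes. For these 5 genes it was 5.04 to 7.05%. For Hvcn1 it was 5.04%, above the whole coefficient of variation of 3.60%, so these values are not the genes' own spread alone. They were below the median of 8.66% over all genes tested, which was not matched to them in level. Calls rested on different libraries: without replicate 2 the only member called was Cybb (adjusted chi-square p = 0.00226). Cybb was not called without replicate 1 (0.0733) or without replicate 3 (0.259). Ncf4 was called without replicate 3, just under the threshold (adjusted chi-square p = 0.0497). The share of all genes called fell whichever library was left out, to 28.2% without replicate 1, 18.6% without replicate 2 and 23.5% without replicate 3. Leaving out a library also gives the test fewer counts.

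Replicate 2 deviated most for Cyba, Ncf4, Ncf1 and Hvcn1, though not in the same direction, and least for Cybb. Relative to the mean of the other two libraries on the log2 FPKM scale, replicate 2 was higher by 0.15 for Cyba, 0.18 for Ncf4 and 0.13 for Ncf1. It was at -0.10 for Hvcn1 and 0.01 for Cybb. Cybb was higher by 0.11 in replicate 1 and at -0.12 in replicate 3. Gene length moved with these deviations over all genes: in replicate 2 the median was 0.18 for detected genes with an effective length under 600 nt, 0.10 from 600 to 1500, 0.02 from 1500 to 3000 and -0.06 above 3000 nt. Cyba falls in the shortest of these classes, Ncf4 in the second, Ncf1 and Hvcn1 in the third and Cybb in the longest. The deviation of Cyba was close to its class, whereas Ncf1 and Hvcn1, of like length, deviated in opposite directions. Summed over all genes, FPKM was itself highest in replicate 2, at 560742.8, against 536962.6 in replicate 1 and 529085.5 in replicate 3. With FPKM rescaled to equal totals, the SD fell from 25.15 to 12.6 FPKM for Cyba and from 11.48 to 5.55 for Ncf1. It fell from 2.77 to 1.71 for Ncf4 and rose from 4.34 to 7.60 for Hvcn1. For Cybb it was 1.79 before and 1.76 after. The parts of length and of these totals in the deviations were not tested further.

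**Figure D3:**
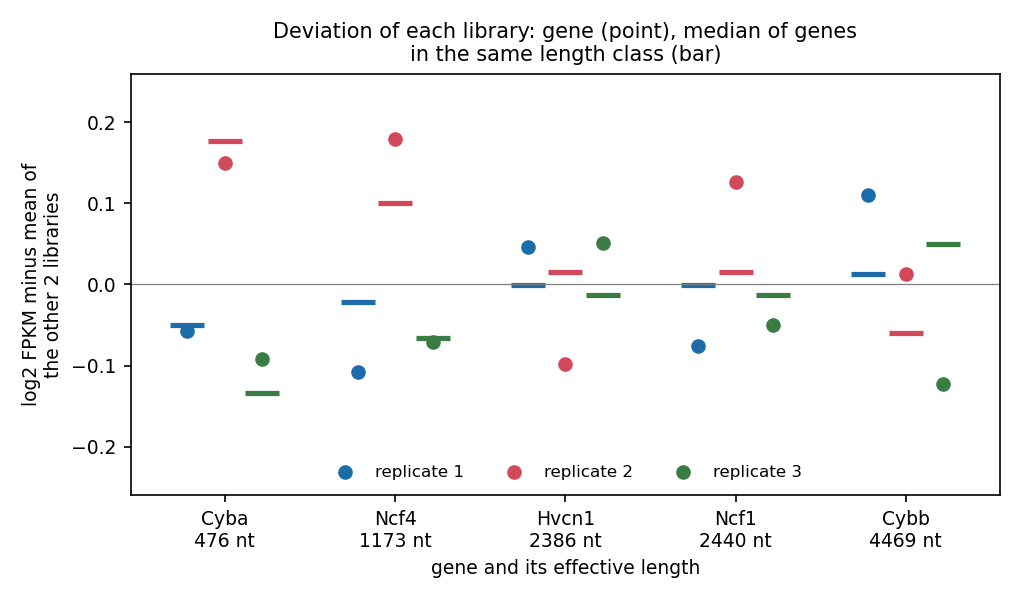
Deviation of each library from the mean of the other 2, in log2 FPKM, for 5 members, ordered by effective length. Points are the gene's own values and bars the median of all detected genes in its length class. Replicate 2 is the highest for Cyba, Ncf4 and Ncf1 and the lowest for Hvcn1.

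All 3 partners of the phagocyte oxidase examined were detected. Rac1, the broadly expressed Rac GTPase, was at 386.22, 351.31 and 366.19 FPKM, a mean of 368 ± 17.5. The haematopoietic Rac2, the Rac of the neutrophil oxidase, was at 54.87, 57.19 and 53.98, a mean of 55.3 ± 1.66, which is 0.151 ± 0.011 times Rac1. Rap1a, a small GTPase that copurifies with the membrane core, was at 77.6 ± 2.09 FPKM. Of the other NADPH oxidases and their cofactors 1 of 7 was detected, Noxo1, an organizer for NOX1, at 1.49, 2.21 and 1.75 FPKM. Duoxa1, a maturation factor of the dual oxidases, was at 0.65 ± 0.41 FPKM with 14, 21 and 5 counts. Nox3, Duox1, Duox2, Duoxa2 and Noxa1 had 0 counts in each library, within the counting limit given above.

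The list of signals that switch the oxidase on also held the Rac inhibitor genes Arhgdia and Arhgdib. Its genes were all detected, 16 of 16, at a median log2(FPKM + 1) of 5.68 ± 0.02. Among the kinases that phosphorylate p47phox, Prkcd was at 106 ± 2.66, Prkcb at 25.3 ± 1.87 and Prkca at 13.2 ± 0.52 FPKM. The Rac exchange factor genes Vav1, Prex1 and Dock2 were at 81.3 ± 3.55, 57.5 ± 2.36 and 46.5 ± 1.42 FPKM, whereas Vav3 was lowest of the list at 1.75 ± 0.48. Arhgdib and Arhgdia, which encode inhibitors that hold Rac in the cytosol, were the highest, at 259 ± 12.9 and 187 ± 4.39 FPKM. The kinase gene Syk, which acts downstream of Fc receptors, was at 47.8 ± 1.45 FPKM.

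Supply of NADPH and removal of the products were covered as well. All 8 NADPH supply genes were detected, at a median of 5.50 ± 0.12 on the log2(FPKM + 1) scale. G6pdx and Pgd, the NADPH-producing enzymes of the pentose phosphate pathway, were at 37.5 ± 5.80 and 77.7 ± 6.01 FPKM, and malic enzyme Me1 was lowest at 3.70 ± 0.85. G6pdx was at 44.19 FPKM in replicate 2 and at 34.24 and 34.06 in the others. All 12 genes of superoxide and peroxide removal were detected, at a median of 6.19 ± 0.09. Gpx1, a cytosolic glutathione peroxidase, was at 404 ± 21.8 FPKM, close to Cyba. The cytosolic dismutase Sod1 was at 179 ± 19.3, mitochondrial Sod2 at 11.2 ± 0.48, extracellular Sod3 at 7.48 ± 0.47 and catalase (Cat) at 34.0 ± 2.33 FPKM.

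Of 10 transcription factors reported at phagocyte oxidase genes, 8 were detected. Spi1 was at 186.55, 191.20 and 181.91 FPKM, above Ncf4, Cybb and Hvcn1 and below Ncf1 and Cyba in each library. Irf8, a Pu.1 partner, was at 122 ± 7.92, Irf1 at 32.3 ± 4.19 and Irf2 at 44.2 ± 3.15 FPKM. Cebpa was highest at 338 ± 3.52, Cebpb was at 182 ± 13.4, and Cebpe, a factor of granulocyte maturation, was at 2.27 ± 0.81 FPKM. Elf1 was at 49.9 ± 4.53 FPKM. Hoxa9 had 0, 0 and 3 counts and Hoxa10 none. With 3 libraries of 1 condition, there was no pattern across conditions by which to look for genes that behave like the members.

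**Figure D4:**
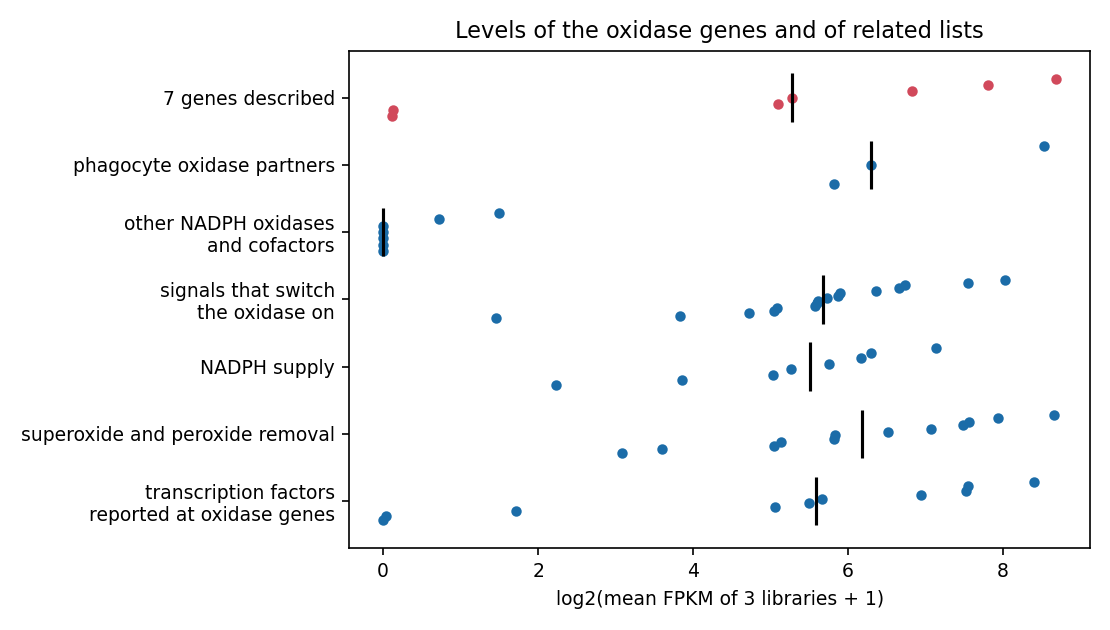
Levels of the 7 genes (red) and of 6 lists of related genes (blue), as log2 of the mean FPKM of 3 libraries plus 1. Each point is a gene and vertical lines are medians. Among the 7 genes, Nox1 and Nox4 lie at the bottom with most of the other NADPH oxidases, and Cyba at 411 FPKM is the highest gene plotted, just above Gpx1 at 404.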

How the data were processed

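Microglial RNA was sequenced in 3 replicates of 1 group as labelled. The submitters' processing notes name the tools STAR 2.7.9a, RSEM and DESeq2 and the builds GRCm38 and mm10. Strandedness and the annotation used for counting are not given in the sources used here, nor is the kit for library preparation. The authors deposited estimated counts per gene (not normalised, 4.07% of values not whole) and FPKM per gene, which divides counts by library size and effective gene length. The effective length was recovered from the 2 tables. There were 0 columns of other samples.

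Levels are deposited FPKM, with no test. Within-library differences used log2(FPKM + 1). For the spread between libraries, counts were rounded, filtered with filterByExpr and TMM-normalised in edgeR 4.0.16 (R 4.3.3). The chi-square test compares libraries, not conditions, and was tested on simulated data. No 2 libraries were identical. DESeq2 1.42.0 gave alternative size factors. Positions are from GENCODE M21 (GRCm38), 1-based, and sequences from RefSeq (GRCm38.p6) or, for the 3′ untranslated regions, GENCODE M21. Alternatives also covered pseudocounts, units, detection thresholds, the filter and each replicate left out.

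All 7 members are named with every value. Any measured gene of the pathway lists could be named, and of each marker list the highest, the lowest and those at 0, with P2ry12, Tmem119 and Mir137. Cybc1, Ly6g and Ighm were not matched. Some genes of the partner and microglial marker lists, and pairs with them, are not reported here. Markers of T and NK cells (3 of 6 detected), fibroblasts (3 of 5), astrocytes (6 of 6), oligodendrocytes (5 of 5), neurons (2 of 6), choroid plexus and ependyma (5 of 5) and erythroid cells (3 of 6) are given mainly as numbers detected. Of these lists, choroid plexus and ependyma had the highest summed level, 6223 to 7103 FPKM and 0.83% of counts. It was led by Ttr at 5690 ± 404 FPKM. The members and lists were chosen with earlier results of these data known.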

Additional observations from a re-analysis of the deposited data

How the results depend on the processing

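Rescaled with TMM, DESeq2 size factors or equal totals, the mean FPKM of each of the 7 genes moved by no more than its SD. These rescalings were centred on the mean of the 3 libraries, so the means could hardly move, and nothing is concluded from that. Equal totals did change the SD between libraries, as given above. The 5 detected genes moved by more than their SD with the longest coding transcript as length. They were then at 263 (Cyba), 189 (Ncf1), 95.6 (Hvcn1), 31.2 (Cybb) and 30.2 (Ncf4) CPM per kilobase. Ncf4 minus Cybb reversed, to -1.73 in CPM and -0.048 with that length. Cyba minus Ncf1 reversed to -1.48 in CPM and was 0.47 with that length. Hvcn1 minus Cyba reversed to 0.46 in CPM, and Hvcn1 minus Ncf4 was 2.58. Cybb minus Nox1 was 7.59 and 9.25 with pseudocounts of 0.1 and 0.01 and 6.97 in CPM. Nox1 minus Nox4 was -0.75 ± 2.03 with a pseudocount of 0.01. The median over the 7 genes was 7.22 in CPM. In each case the alternative removes or changes the division by length or the weight of values near 0. With 1 library left out, 1 to 4 members were called as differing between the other two, and 2498 to 3780 genes in all. With no filter on low counts 5 of 7 members were called, beside 37.7% of the 16966 genes then tested. Nox1 was among them (adjusted chi-square p = 0.0188, from 0, 2.19 and 8.03 estimated counts). At so few counts the chi-square p is a rough approximation, and no weight is placed on this call. No paired analysis was possible because the samples form 1 group, so that no numbered samples of different groups can be matched; the differences between genes were taken within each library. Depth limits Nox1 and Nox4, whose difference was not detectable.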
